A study of Oryza sativa Indica Group with 5 samples.

Results

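Catalases, ascorbate peroxidases and superoxide dismutases, enzymes that remove hydrogen peroxide and superoxide, were followed in developing rice seed. The 8 loci were the catalase genes CATA, CATB and CATC, the ascorbate peroxidase genes APX1 and APX2, a pair of cytosolic copper/zinc superoxide dismutase genes (cCuZn-SOD1 and cCuZn-SOD2) and the manganese superoxide dismutase gene (Mn-SOD). They were found by locus name among the 48857 loci of the array. All 8 were present, with 15 probes, and 13 of these probes were well above background on at least 2 arrays and were tested. Total RNA from pulverized developing seed, taken 16 days after flowering, was labelled with Cy3 and hybridised to single-colour Agilent rice arrays. The 3 high-amylose arrays each held another rice accession with haplotype 8, and the 2 waxy arrays each held another accession with haplotype 4, whose starch holds little or no amylose. The untreated plants were kept in a phytotron glasshouse with days of 29 °C and nights of 21 °C. With a single array for each accession, p-values measure the spread between accessions together with the technical spread between arrays.

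Superoxide dismutases convert superoxide into hydrogen peroxide and oxygen. Catalases break hydrogen peroxide down in peroxisomes without a reductant, and ascorbate peroxidases reduce it with ascorbate, which is then recycled through the ascorbate-glutathione cycle. In ripening cereal grain the starchy endosperm dies while the embryo and aleurone stay alive, so RNA of the seed mixes dying tissue, living storage tissue and green outer layers.

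Some properties of the arrays touch every result. High-amylose replicates 2 and 3 shared a scan date and were dimmer than the other 3 arrays, with a 75th percentile of the processed signal of 108 and 88.8 against 183 to 212. Neither waxy array shared its scan date with a high-amylose array, so the effect of scan date cannot be told apart from that of the group. The transcript of Waxy, the starch synthase gene of amylose, was at 8.21 on waxy replicate 1, within the 7.96 to 8.46 of the high-amylose arrays, and at 3.70 on waxy replicate 2. Differences without either waxy array are therefore given for each member and, among the further loci, for APX8, APX3 and GLO4 only. The tissue label matched its markers: all 11 endosperm and all 6 embryo and aleurone markers were well above background on all 5 arrays.

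No member of the 8 differed between high-amylose and waxy seed beyond the spread between accessions. With limma and Benjamini-Hochberg adjustment over 28945 loci, 0 of 8 passed, and every member had an adjusted p of 1.00. Of all loci 0.0276% passed. At an unadjusted limma p under 0.05 the count was also 0 of 8, where all loci had 3.4%. The difference, high-amylose minus waxy, was above 0 for 6 members and below 0 for 2, against 53.9% of all loci above 0. The median difference was 0.08 on the log2 scale, against 0.03 over all loci. The groups did not overlap for 1 of 8 members, APX2, against 13.5% of all loci in either direction and 8.52% with the high-amylose arrays higher. Values below are log2 of the processed signal minus the array's 75th percentile, so 0 is the brightness of that percentile and 1 unit is a 2-fold change. Levels of different probes are not comparable. In RNA of the seed, fewer cells of a type and less RNA per cell cannot be told apart.

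**Figure D1:**
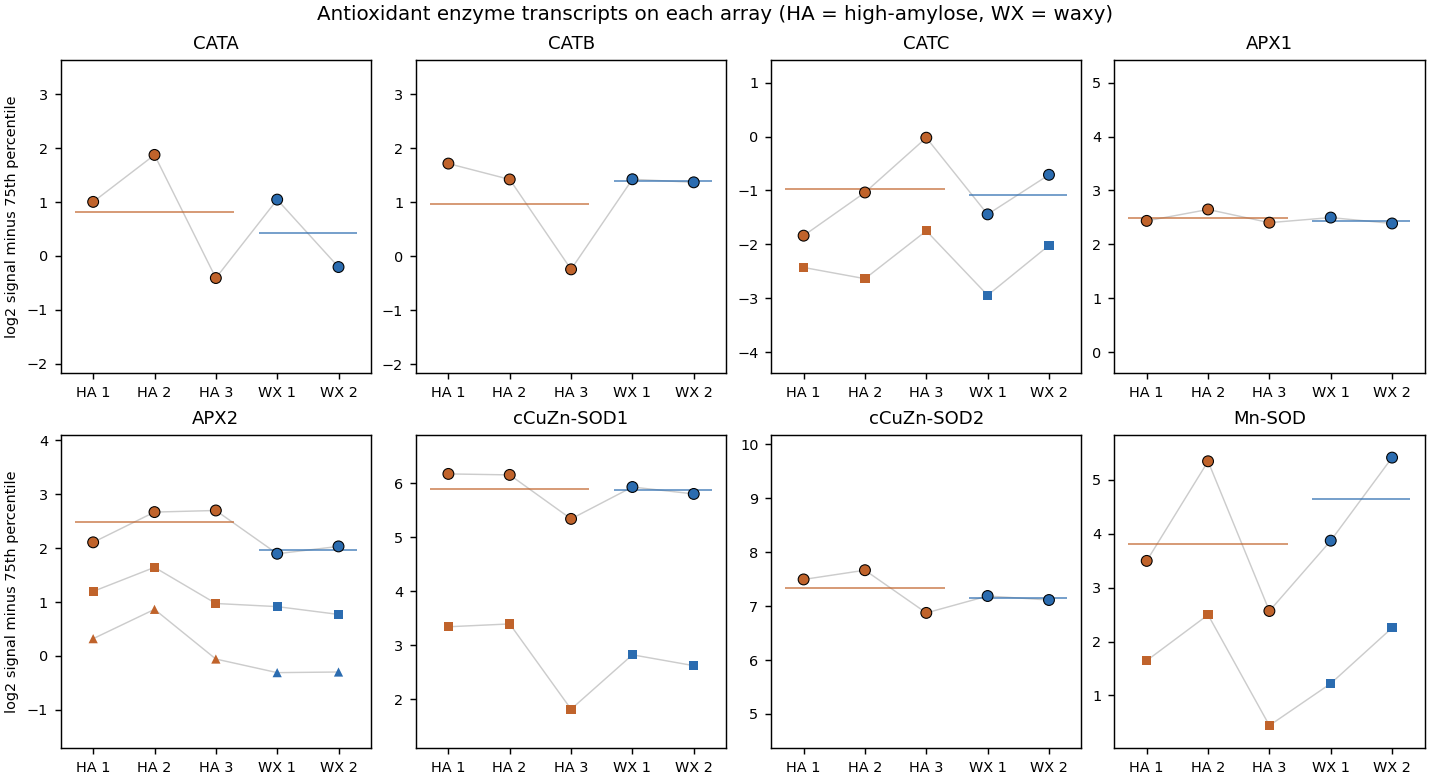
Log2 signal relative to the 75th percentile (y axis, the same span in each panel) on the 3 high-amylose arrays (HA, orange) and the 2 waxy arrays (WX, blue), with circles for the probe used for the locus, squares and triangles for its other tested probes, horizontal lines for group means, and grey lines joining values of a probe. APX1 stayed between 2.39 and 2.65, whereas Mn-SOD ran from 2.57 to 5.41 with high and low arrays in both groups.

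Among the catalases, CATA (LOC_Os02g02400, chromosome 2) was at 1.00, 1.87 and -0.41 on high-amylose replicates 1, 2 and 3, and at 1.04 and -0.21 on waxy replicates 1 and 2. Each group held higher and lower arrays, and the groups overlapped. The high-amylose arrays spanned 4.87-fold and the waxy arrays 2.38-fold, while the group difference was 0.40 (SE 0.68, 95% interval -1.12 to 1.93). It was 1.03 without waxy replicate 1 and -0.22 without waxy replicate 2, so its sign rested on single arrays. These values come from the probe for gene model 1. Probes for gene models 2 and 3 of CATA were not well above background on any of the 5 arrays. Gene model 2 was at -5.76, -4.68 and -4.90 against -5.81 and -5.91. Gene model 3 was at -5.76, -4.26 and -4.96 against -4.19 and -5.98. The groups did not overlap at gene model 2, but at such levels this is no support for a difference.

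CATB (LOC_Os06g51150, chromosome 6) was at 1.72, 1.42 and -0.24 on the high-amylose arrays and at 1.43 and 1.37 on the waxy arrays. A single array stood apart: high-amylose replicate 3 lay 3.31-fold below the mean of the other 4 arrays, and these 4 lay close together. The group difference was -0.43 (SE 0.60, 95% interval -1.77 to 0.91), and without high-amylose replicate 3 it was 0.17. It was -0.40 without waxy replicate 1 and -0.46 without waxy replicate 2. The locus has 1 probe.

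CATC (LOC_Os03g03910, chromosome 3), a catalase known for its role in leaves, had the opposite order on the high-amylose arrays. Its brighter probe was at -1.84, -1.04 and -0.02 on high-amylose replicates 1, 2 and 3 and at -1.44 and -0.71 on the waxy arrays. High-amylose replicate 3 was highest, replicate 1 was lowest, and both waxy arrays lay between them. The second probe was at -2.43, -2.64 and -1.75, and at -2.94 and -2.02 on the waxy arrays, again highest on high-amylose replicate 3. It was well above background on 2 of the 3 high-amylose arrays and on both waxy arrays. The group difference was 0.11 (SE 0.57, 95% interval -1.18 to 1.40) at the brighter probe and 0.21 at the second. At the brighter probe it was -0.26 without waxy replicate 1 and 0.48 without waxy replicate 2.

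Of the cytosolic ascorbate peroxidases, APX1 (LOC_Os03g17690, chromosome 3) was at 2.44, 2.65 and 2.40 on the high-amylose arrays and at 2.50 and 2.39 on the waxy arrays. All 5 arrays lay within 1.20-fold, and only 1.18% of tested loci had a smaller residual spread. The difference was 0.05 (SE 0.40), where limma's SE is larger than the measured spread because it borrows from all loci. Its 95% interval, -0.85 to 0.95, thus still allows differences of up to 1.93-fold. Without waxy replicate 1 or 2 the difference stayed within 0.11 of 0.

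APX2 (LOC_Os07g49400, chromosome 7) was the one member whose groups did not overlap at the probe used for the locus. At the probe for gene model 1 it was at 2.11, 2.67 and 2.70 on the high-amylose arrays and at 1.90 and 2.03 on the waxy arrays. High-amylose replicates 2 and 3 stood above the rest, and replicate 1 was only just above waxy replicate 2. The difference was 0.53 (SE 0.42, 95% interval -0.42 to 1.47), or 1.44-fold, and missed the threshold (adjusted p = 1.00, limma). It was 0.46 without waxy replicate 1, 0.60 without waxy replicate 2, and 0.14 without high-amylose replicates 2 and 3.

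The other probes of APX2 also had every high-amylose array above both waxy arrays. The probe for gene model 3 was at 1.20, 1.64 and 0.97 against 0.92 and 0.77, a difference of 0.43. The probe for gene model 4 was at 0.32, 0.87 and -0.06 against -0.31 and -0.30, a difference of 0.68. The 3 probes share a locus and an RNA sample per array, so they are not independent, and among the 328 loci with 3 tested probes 3.05% had groups apart the same way at all of them. The probe for gene model 3 overlapped when the percentile was taken over probes well above background on all arrays, and in the authors' deposited log2 values. The probes disagreed on high-amylose replicate 3: relative to replicate 2 it was at 0.03 for gene model 1, -0.67 for gene model 3 and -0.92 for gene model 4.

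Of the superoxide dismutases, cCuZn-SOD1 (LOC_Os03g22810, chromosome 3) was at 6.18, 6.16 and 5.34 on the high-amylose arrays and at 5.93 and 5.81 on the waxy arrays. High-amylose replicate 3 was lowest, the other high-amylose arrays were highest, and the waxy arrays lay between. Its second probe gave the same picture at 3.34, 3.39 and 1.81 against 2.82 and 2.62. High-amylose replicate 3 lay 1.60-fold below the mean of the other arrays at the first probe and 2.35-fold below it at the second. The group difference was 0.02 (SE 0.44, 95% interval -0.97 to 1.02), with a sign that turned under other scalings. It was 0.087 without waxy replicate 1 and -0.041 without waxy replicate 2.

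The second cytosolic gene, cCuZn-SOD2 (LOC_Os07g46990, chromosome 7), was at 7.49, 7.67 and 6.87 on the high-amylose arrays and at 7.19 and 7.11 on the waxy arrays. The order of groups of arrays was the same as for cCuZn-SOD1, with high-amylose replicate 3 lowest and both waxy arrays in the middle. The difference was 0.19 (SE 0.43, 95% interval -0.78 to 1.17). It was 0.23 without waxy replicate 1, 0.16 without waxy replicate 2 and 0.03 without high-amylose replicate 2. Across the 5 arrays the cCuZn-SOD genes correlated at 0.93, which describes these arrays only.

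Mn-SOD (LOC_Os05g25850, chromosome 5), the mitochondrial form, varied most between accessions. The probe for gene model 2 was at 3.50, 5.34 and 2.57 on the high-amylose arrays and at 3.87 and 5.41 on the waxy arrays. High-amylose replicate 2 and waxy replicate 2 were high, and the other 3 arrays were low, so the division ran across the groups. All arrays together spanned 7.18-fold, the high-amylose arrays 6.85-fold and the waxy arrays 2.91-fold, and 96.1% of tested loci had a smaller residual spread. The probe for gene model 1 was at 1.65, 2.50 and 0.44 on the high-amylose arrays and at 1.22 and 2.25 on the waxy arrays, with the same high pair, the same lowest array and a narrower span of 4.15-fold. The probes correlated at 0.94 over the 5 arrays. The group difference was -0.84 (SE 0.79, 95% interval -2.60 to 0.93) at the first of these probes and -0.21 at the second. Single arrays moved it: it was -1.61 without high-amylose replicate 2 or without waxy replicate 1, -0.22 without high-amylose replicate 3 and -0.07 without waxy replicate 2.

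**Figure D2:**
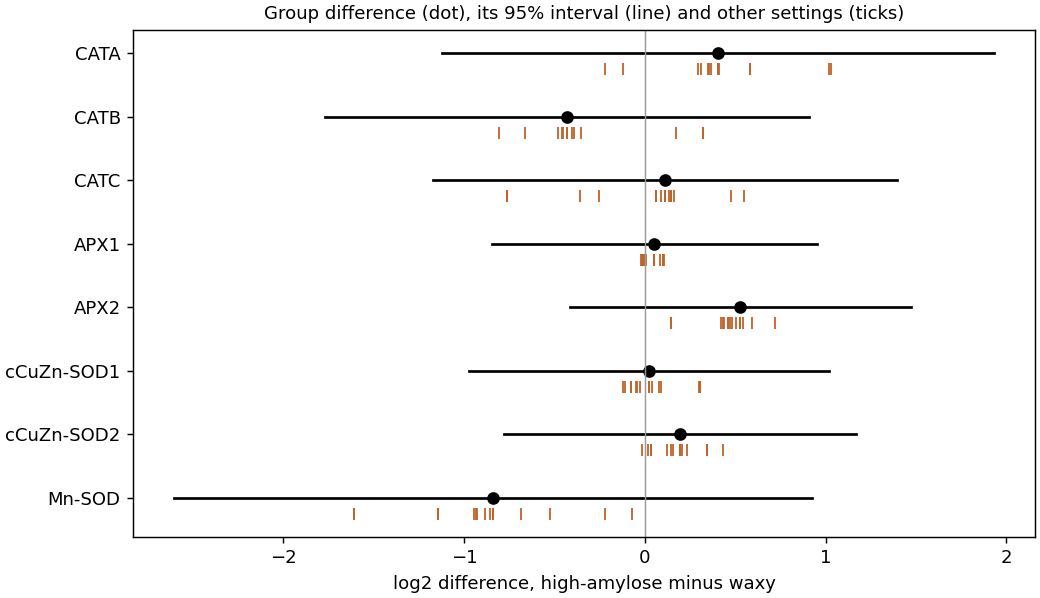
Log2 difference, high-amylose minus waxy (x axis), of each gene (rows), with a dot for the value, a black line for limma's 95% interval and orange ticks for the value under each of 17 other settings. Every interval crosses 0, and all ticks of APX2 lie above 0 (0.14 to 0.72) and all of Mn-SOD below 0 (-1.61 to -0.07).

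For each of the 8 members the high-amylose arrays spanned more than the difference between the group means, narrowly so for APX2 (0.59 against 0.53). The share of all loci with such a span is not given here, so this is not particular to the members. High-amylose replicate 3 was the lowest array for 5 of 8 members (CATA, CATB, cCuZn-SOD1, cCuZn-SOD2 and Mn-SOD), against 23.7% of all loci, and the highest for CATC and, at the gene model 1 probe, for APX2, against 36.5% of all loci. Its deviation from the mean over all arrays was -1.38 for CATB, -1.57 for Mn-SOD and 0.99 for CATC. On high-amylose replicate 2, which shared its scan date, CATA and Mn-SOD each deviated by 1.21, so the dim arrays lay on opposite sides for these genes.

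Markers of seed tissues also varied between the arrays. The 6 embryo and aleurone markers had median deviations of 0.31, 0.68 and -0.79 on high-amylose replicates 1, 2 and 3. On the waxy arrays these medians were -0.37 and 0.04. The list was split: 3 of the 6 were lowest on high-amylose replicate 3, and 1, VP1, was highest there. The remaining markers, the 1-Cys peroxiredoxin and RAB16A, were lowest on waxy replicate 1. The summed signal of the 6, in multiples of the 75th percentile, was 698 to 1581 on the high-amylose arrays and 728 to 1047 on the waxy arrays. The green-layer markers, genes of photosynthesis, deviated by -1.19, 1.08 and 2.52 on the high-amylose arrays and by -1.44 and -0.91 on the waxy arrays. Of these 12 markers 10 were tested, all 10 were highest on high-amylose replicate 3, and 3 were not well above background on either waxy array. Their summed signal was 1.58 to 20.2 on the high-amylose arrays and 1.69 to 2.16 on the waxy arrays. The 11 endosperm markers deviated less, by 0.36, -0.46 and -0.02 on the high-amylose arrays and by -0.09 and 0.09 on the waxy arrays. Their summed signal was 4967 to 5506 on the high-amylose arrays and 4216 to 4517 on the waxy arrays. Bright probes weigh most in all these sums. The brightest endosperm marker, globulin, was at 11.31, 11.69 and 11.80 on the high-amylose arrays against 11.30 and 10.97. Of the 11 endosperm differences 6 were above 0 and 5 below. Over the 5 arrays the members' correlations with the embryo and aleurone median ran from -0.55 for CATC to 0.94 for cCuZn-SOD2, with 0.87 for cCuZn-SOD1. Those with the green-layer median ran from -0.83 for CATB to 0.95 for APX2, with 0.79 for CATC, and those with the endosperm median from -0.81 for APX1 to 0.10 for CATB. The value of APX2 was that of the gene model 1 probe, and its gene model 3 and 4 probes correlated with the green-layer median at 0.31 and 0.33. On high-amylose replicate 3 these probes were at -0.16 and -0.20 relative to the mean of the other 4 arrays. The second probe of CATC correlated with the green-layer median at 0.56. These correlations rest on 5 arrays and describe them only, and the part of tissue make-up in the members' values was not tested.

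**Figure D3:**
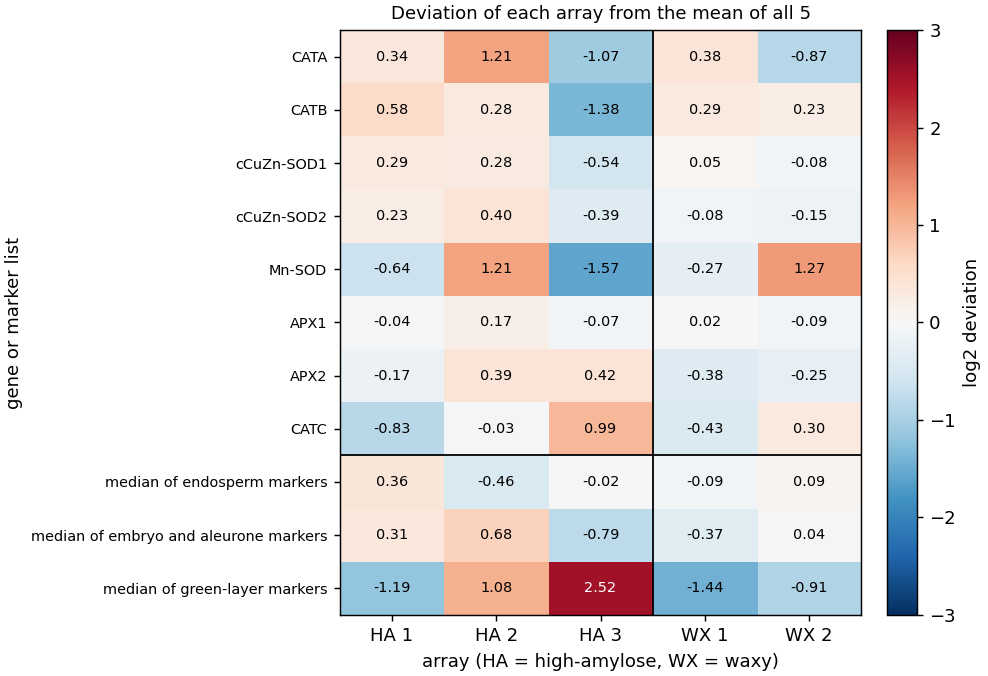
Deviation of each array (columns) from the mean of all 5 on the log2 scale, for the 8 genes (the probe used for each locus) and for the median of each marker list (rows), with red above and blue below the mean. On high-amylose replicate 3, CATA, CATB, both cCuZn-SOD genes and Mn-SOD are below 0 together with the embryo and aleurone markers (-0.79), and CATC (0.99), the gene model 1 probe of APX2 (0.42) and the green-layer markers (2.52) are above 0.

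Of 37 further loci of peroxide and superoxide metabolism, 36 were tested and 0 passed (limma with Benjamini-Hochberg), against 0.0276% of all loci. An unadjusted limma p under 0.05 was found at 3, APX8, APX3 and GLO4, against 3.4% of all loci. These 3 were not well above background on either waxy array and passed the filter only through high-amylose arrays. That selection favours a difference above 0, so their p-values and intervals are no support for one. Differences of the 36 were above 0 at 19 loci and below 0 at 17, with a median of 0.01. Like the members, 17 of the 36 were lowest on high-amylose replicate 3.

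The 6 other ascorbate peroxidase loci, APX3 to APX8, had a median of 0.32, with 3 above 0 and 3 below. APX8, the thylakoid-bound form of the chloroplast, was at -3.63, -2.28 and -2.67 on the high-amylose arrays and at -4.67 and -3.82 on the waxy arrays. It was well above background only on high-amylose replicates 2 and 3, the dimmer arrays that shared a scan date. Green-layer markers were also high on these arrays, and a link of either to APX8 was not tested. With the waxy arrays taken at their limit of detection where this is higher, the high-amylose mean of APX8 was 2.39-fold above the waxy mean. This ratio is not a lower bound, because high-amylose replicate 1, not well above background, kept its measured value. The fitted difference was 1.38 (SE 0.52, limma adjusted p = 1.00). The fitted value was 0.96 without waxy replicate 1 and 1.81 without waxy replicate 2. APX3, a peroxisomal form, was at -4.23, -2.63 and -2.40 against -5.92 and -3.81. It too was well above background on high-amylose replicates 2 and 3 alone. Its groups overlapped, as high-amylose replicate 1 lay below waxy replicate 2. With the waxy arrays taken as for APX8, its high-amylose mean was 2.04-fold above the waxy mean, again not a lower bound. The fitted difference was 1.78 (SE 0.73, limma adjusted p = 1.00). The value of APX3 depended on single waxy arrays: it was 0.72 without waxy replicate 1 (limma adjusted p = 1.00) and 2.83 without waxy replicate 2 (limma adjusted p = 0.0613). APX5 was at 0.67 (SE 0.45), and APX7, the stromal form of the chloroplast, was at -0.03.

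For the other superoxide dismutases and their copper chaperone CCS, 3 of 5 differences were above 0, with a median of 0.01. The CuZn-SOD at LOC_Os03g11960 was at -0.38 (SE 0.45), the Fe-SOD at LOC_Os06g02500 at -0.36 (SE 0.56) and the plastid CuZn-SOD at 0.08 (SE 0.47). This Fe-SOD was not well above background on high-amylose replicates 2 and 3. No member of this list reached an unadjusted p under 0.05.

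Enzymes that recycle ascorbate and glutathione were tested at 9 of 10 loci, 3 above 0 and 6 below, with a median of -0.19. A monodehydroascorbate reductase (LOC_Os08g05570) was at -0.79 (SE 0.59), a glutathione reductase (LOC_Os03g06740) at -0.76 (SE 0.73) and the dehydroascorbate reductase DHAR1 at 0.40 (SE 0.41). The glutathione reductase was not well above background on high-amylose replicates 2 and 3 either. DHAR1 was the only one of the 9 whose groups did not overlap, a share near the 13.5% of all loci. Glutathione peroxidases and peroxiredoxins had 8 of 12 differences above 0 and a median difference of 0.19. The 1-Cys peroxiredoxin, an enzyme of embryo and aleurone that also stands in that marker list, was at 8.92, 9.57 and 8.72 against 8.34 and 8.72. High-amylose replicate 3 was only just above waxy replicate 2, and the difference was 0.54 (SE 0.44). The glutathione peroxidases at LOC_Os06g08670 and LOC_Os03g24380 were at 0.48 (SE 0.45) and 0.42 (SE 0.44).

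Glycolate oxidases, which release hydrogen peroxide in peroxisomes, had 2 of 4 differences above 0 and a median of 0.21. GLO4 was at -2.84, -2.72 and -2.32 on the high-amylose arrays and at -3.35 and -4.50 on the waxy arrays. It was well above background on high-amylose replicates 1 and 3 only. The fitted difference was 1.29 (SE 0.48, 95% interval 0.22 to 2.37, limma adjusted p = 1.00). It was 1.87 without waxy replicate 1 and 0.72 without waxy replicate 2. GLO4 had the smallest unadjusted p of the 36 loci, 0.0230 in limma. GLO5 was at 0.49 (SE 0.44) and GLO3 at -0.50 (SE 0.59).

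**Figure D4:**
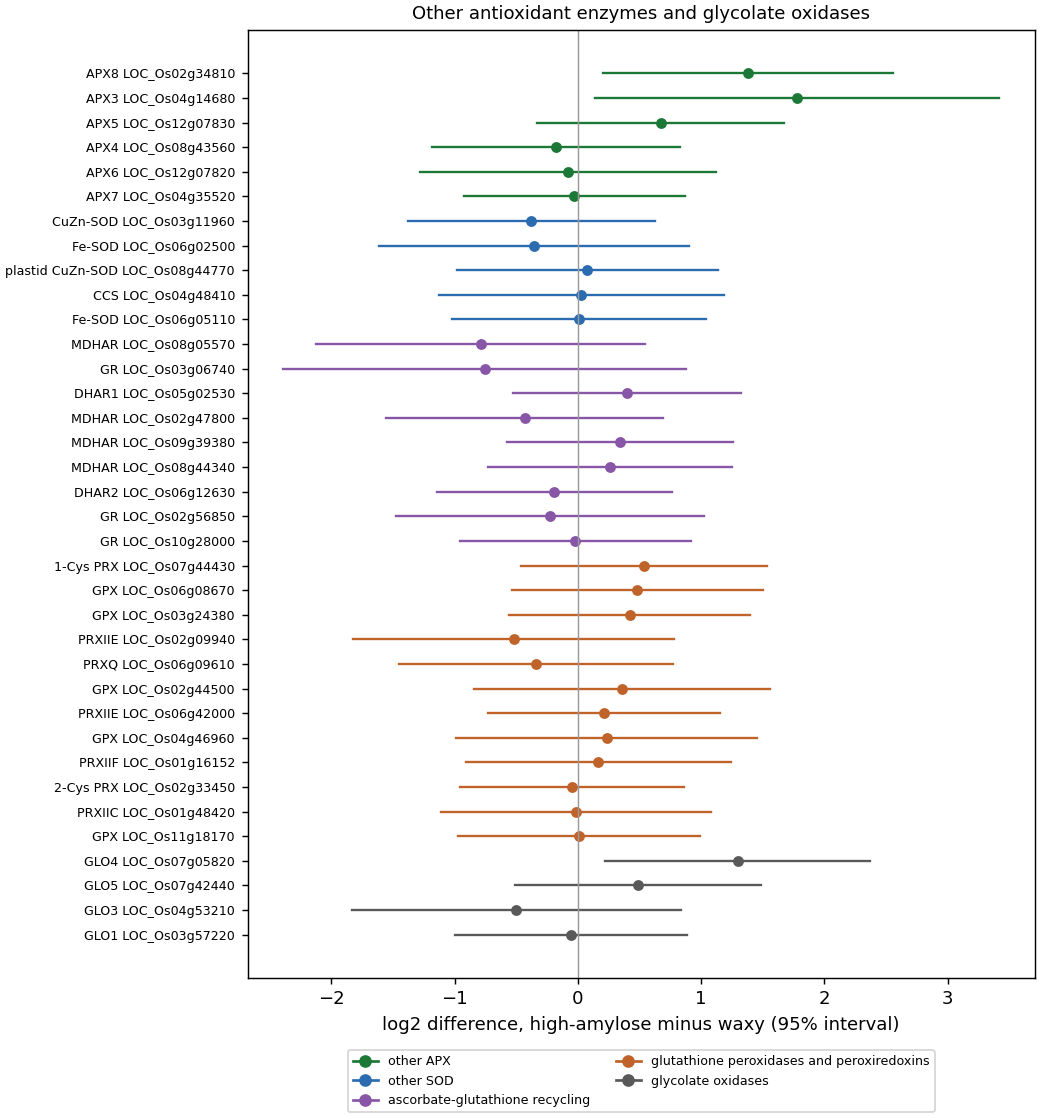
Log2 difference, high-amylose minus waxy (x axis), with limma's 95% interval for 36 further loci of peroxide and superoxide metabolism (rows), coloured by list. The intervals of APX8, APX3 and GLO4 lie above 0 before adjustment for the number of loci tested, and all others cross 0. These loci were well above background on no waxy array and entered the test through high-amylose arrays alone.

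Over the 5 arrays, the loci most like each member were picked by Pearson correlation among 22558 other loci well above background on all arrays. Many loci correlate this highly over so few arrays, so the values only describe them. CATB was closest to LOC_Os01g41640 (0.9990) and to APX4 (LOC_Os08g43560, 0.9986), a peroxisomal ascorbate peroxidase, and 276 loci were above 0.95. CATA was closest to LOC_Os11g04720 (0.9985) and LOC_Os02g47000 (0.9983), with 101 loci above 0.95. CATC was closest to LOC_Os07g08380 and LOC_Os07g48710 (both 0.9997), with 970 loci above 0.95. Of the members CATC thus had the most such loci, counted at its brighter probe, which correlated with its second probe at 0.77. APX1 had the fewest, 73, with LOC_Os04g28530 (0.9964) and LOC_Os11g26570 (0.9935) nearest. Its 5 arrays lay within 1.20-fold, so its order of arrays rests on small differences. APX2 was closest to LOC_Os01g41920 (0.9995) and LOC_Os10g02400 (0.9990), with 446 loci above 0.95. The pair nearest to cCuZn-SOD1 was LOC_Os08g23150 (0.9999) and LOC_Os08g16559 (0.9991), and that nearest to cCuZn-SOD2 was LOC_Os05g37460 (0.9979) and LOC_Os04g20540 (0.9978). Mn-SOD was closest to LOC_Os04g31820 (0.9984) and LOC_Os09g26260 (0.9980).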

How the data were processed

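Scanner files deposited by the authors give an intensity for each spot. They were written by Agilent Feature Extraction 11.5.1.1, per the file headers, and hold processed signals already background-subtracted. Flags of 0 or 1 for spots well above background and for outliers come with them. The authors also deposited log2 values, used as an alternative; limma is listed in the submitters' processing notes, without a normalization. Differences between their columns followed those of quantile-scaled log2 intensity (r of 0.9996 to 0.9997 over 10 pairs of arrays), and their column medians were -0.0172 (high-amylose replicate 1), 0.0395 (replicate 2), 0.0270 (replicate 3), -0.0227 (waxy replicate 1) and 0.00414 (waxy replicate 2). This comparison settles scale and direction, but not what was subtracted from each probe to centre it.

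Control spots were left out and spots of a probe averaged without outliers. No spot was saturated. Processed intensity was put on the log2 scale and set against the array's 75th percentile. A probe was tested if well above background on at least 2 arrays (35634 probes), and the tested probe with the highest mean stood for a locus (28945 loci). Groups were compared over all 5 arrays by lmFit and eBayes of limma 3.58.1 (R 4.3.3, two-sided, no covariate), at a Benjamini-Hochberg adjusted p under 0.05; the fit was tested on simulated data. The number of arrays limits the precision: the median SE of a log2 difference was 0.463. Other tools were jsonlite 2.0.0, data.table (version 1.17.8), Python 3.11.15, pandas 2.3.3 and matplotlib 3.10.9. Replicates are numbered in accession order, which pairs nothing.

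The files name loci and no genes. Names are those in common use; RefSeq's gene list (assembly ASM3414082v1) holds such a name on the chromosome of the locus for 7 of the 8 members. Named are all 8 members with every probe, up to 3 loci with the smallest p per list, and the 2 loci most like each member; APX7 was added after its value was seen. The members and lists were chosen with earlier results of these data known. The alternatives were other background corrections, scalings, filters, probe rules and eBayes settings, scan-date terms and leaving out each array.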

Additional observations from a re-analysis of the deposited data

How the results depend on the processing

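No member and no further antioxidant locus passed under any of the 17 other settings. Of these settings 1, the scan date as a random block, was chosen after seeing the data. In the main fit 3 further loci had an unadjusted limma p under 0.05. The count was 0 with normexp and quantile scaling, with trend and robust eBayes, and without high-amylose replicate 3. It was also 0 with the filter of well above background on all 5 arrays, which the probes of these 3 loci did not meet. Without high-amylose replicate 1 the count was 5. Settings that set 1 array alone against the other group, among them both scan-date settings without a random block, are left out of these counts. Of the members, Mn-SOD had an unadjusted limma p of 0.0356 without high-amylose replicate 2, at a difference of -1.61. The difference of Mn-SOD was also -1.61 without waxy replicate 1, where a single waxy array is left. The lowest adjusted p was 0.437 for a member (APX2, without high-amylose replicate 1) and 0.0613 for a further locus (APX3, without waxy replicate 2). Of 136 differences of members under these settings, 23 had the opposite sign, none for APX2 or Mn-SOD. The changes of filter, the trend and robust eBayes, and the testing of every probe apart repeated the main differences exactly. These settings thus say nothing on how stable a sign is. The scan-date term gave the same values as leaving out the arrays that shared a scan date. Under normexp on median signals (the files hold no mean signals) with quantile scaling, cCuZn-SOD1 was at -0.0486. With quantile scaling alone APX1 was at -0.0122 and cCuZn-SOD1 at -0.0742. With the percentile over probes well above background on all arrays, cCuZn-SOD1 was at -0.0246. In the deposited log2 values APX1, cCuZn-SOD1 and cCuZn-SOD2 were at -0.0146, -0.0782 and -0.0186. With a term for the high-amylose arrays sharing a scan date, or without them, CATB was at 0.32, CATC at -0.76 and APX1 at -0.00664; both set high-amylose replicate 1 alone against the waxy arrays and assume that it varies like them. Leaving out each array in turn gave -0.22 to 1.03 for CATA, -0.81 to 0.17 for CATB, -0.36 to 0.55 for CATC, -0.0233 to 0.11 for APX1, 0.42 to 0.72 for APX2, -0.12 to 0.30 for cCuZn-SOD1, 0.03 to 0.43 for cCuZn-SOD2 and -1.61 to -0.07 for Mn-SOD. The cause of these changes was not tested. The number of called loci over the whole array, 8, was 0 to 179 under the other settings. No paired analysis was possible because the labels carry no replicate numbers. Exact permutation of 3 against 2 arrays cannot go below p = 0.1, so no such test is given.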
